A study of Mus musculus with 33 samples.

Results

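The collagen chain genes are the 41 genes, of 19169 in the count table, whose symbols name an alpha chain of a numbered collagen type and whose counts summed to 10 or more over 33 mouse liver RNA-seq libraries. They were sorted by the type of collagen they belong to into 11 fibrillar genes, 6 basement membrane genes, 8 fibril-associated genes and 16 others, and 34 of the 41 (9, 5, 6 and 14) had enough counts to be tested. The livers came from 4 groups, and every mouse had 6 weeks on its diet. KI ASK1i denotes 10 libraries (5 female, 5 male) of Nlrp3A350V/+CreT knock-in mice fed the ASK1 inhibitor GS-444217. KI control denotes 5 libraries (1 female, 4 male) of the same genotype fed control chow with placebo. WT ASK1i denotes 8 libraries (4 female, 4 male) of wild-type mice fed the inhibitor, and WT control denotes 10 libraries (7 female, 3 male) of wild-type mice fed control chow with placebo. The knock-in carries 1 mutant copy of the inflammasome sensor Nlrp3, switched on by tamoxifen through CreT. The sources used here do not give the promoter that drives CreT, the age of the mice or whether wild-type mice received tamoxifen. The study asked how blocking ASK1, a stress-activated kinase upstream of JNK and p38, bears on liver injury and scarring in this model.

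Collagens are proteins of 3 chains wound into a triple helix. Fibrillar collagens, chiefly types I and III, assemble into the fibres that make up scar tissue, and types V and XI set the start and the width of those fibres. Type IV forms the sheet of basement membranes, fibril-associated collagens coat fibres, type VI forms beaded filaments, and others span cell membranes or, like type XVIII, lie in basement membranes. In liver, hepatic stellate cells and portal fibroblasts are the known makers of fibrillar collagen in injury.

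Libraries held 32245900 to 38393474 counts in KI ASK1i livers, 33754743 to 38584259 in KI control livers, 30212449 to 40008114 in WT ASK1i livers and 28099685 to 33572199 in WT control livers. Nlrp3, the altered gene, averaged 7.90 ± 2.66 CPM (counts scaled to library depth) in KI ASK1i livers, 11.1 ± 3.45 in KI control livers, 2.73 ± 0.492 in WT ASK1i livers and 3.03 ± 1.05 in WT control livers (SD, n = 10, 5, 8 and 10). The library labelled KI ASK1i replicate 5 stood apart: it had 2.10 CPM of Nlrp3, and on the first principal component it lay at -59.23, against 54.85 to 103.2 in the other KI ASK1i libraries, 73.5 to 90.79 in KI control libraries and -74.06 to -45.92 in all WT libraries. Differences between KI ASK1i and WT ASK1i livers are given with it, and also without it for genes with per-library values and where a call turns on it. The labels do not state that libraries and mice match one to one, and the p-values rest on library-to-library spread, which may be technical. Titles carry either a plain number or a number with a P (the title set), and a further code of an L and a digit (the L code) that the labels do not explain. The model had group, sex and title set as terms. In bulk liver RNA, more cells of a type and more RNA per cell cannot be told apart.

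Collagen transcripts were a small share of liver RNA. They took 0.102% ± 0.0128 of all counts in KI ASK1i livers, 0.130% ± 0.0158 in KI control livers, 0.101% ± 0.0115 in WT ASK1i livers and 0.0997% ± 0.0099 in WT control livers. Col18a1, whose type XVIII chain is cut to release endostatin, was the most abundant per length in both control groups. It made up 54.9% of the summed collagen level per length (CPM per kilobase of transcript) in KI control livers and 78.0% in WT control livers. After Col18a1, the highest levels in KI control livers were those of Col4a1 (20.0 CPM per kb), Col3a1 (16.8), Col14a1 (13.0), Col4a2 (10.6) and Col1a2 (9.53). In WT control livers the order was Col14a1 (9.89 CPM per kb), Col4a1 (7.55), Col4a2 (4.33), Col5a3 (3.04), Col3a1 (2.70), Col6a1 (2.63) and Col1a2 (2.46). Col3a1 thus stood next to Col4a1 in KI control livers and below Col5a3 in WT control livers.

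Without Col18a1, 39 collagen genes with a known length summed to 68.1 ± 18.6 CPM per kb in KI ASK1i livers, 99.7 ± 18.9 in KI control livers, 43.0 ± 4.14 in WT ASK1i livers and 43.6 ± 3.23 in WT control livers. Every KI control liver (77.5 or more) lay above every WT control liver (47.8 or less). The 9 KI ASK1i livers other than replicate 5 had 52.5 to 100.2 CPM per kb, above the 37.2 to 48.7 of WT ASK1i livers, and replicate 5 had 31.0. The sum of Col1a1, Col1a2 and Col3a1, the chains of types I and III, was 13.3 ± 7.75 CPM per kb in KI ASK1i livers (14.5 ± 7.22 without replicate 5), 30.3 ± 9.98 in KI control livers, 6.26 ± 1.07 in WT ASK1i livers and 5.61 ± 0.995 in WT control livers. The basement membrane chains summed to 29.9 ± 10.3 CPM per kb in KI ASK1i livers (32.3 ± 7.49 without replicate 5), 35.2 ± 5.15 in KI control livers, 12.5 ± 2.66 in WT ASK1i livers and 12.4 ± 2.98 in WT control livers. These sums describe the libraries and were not tested.

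**Figure D1:**
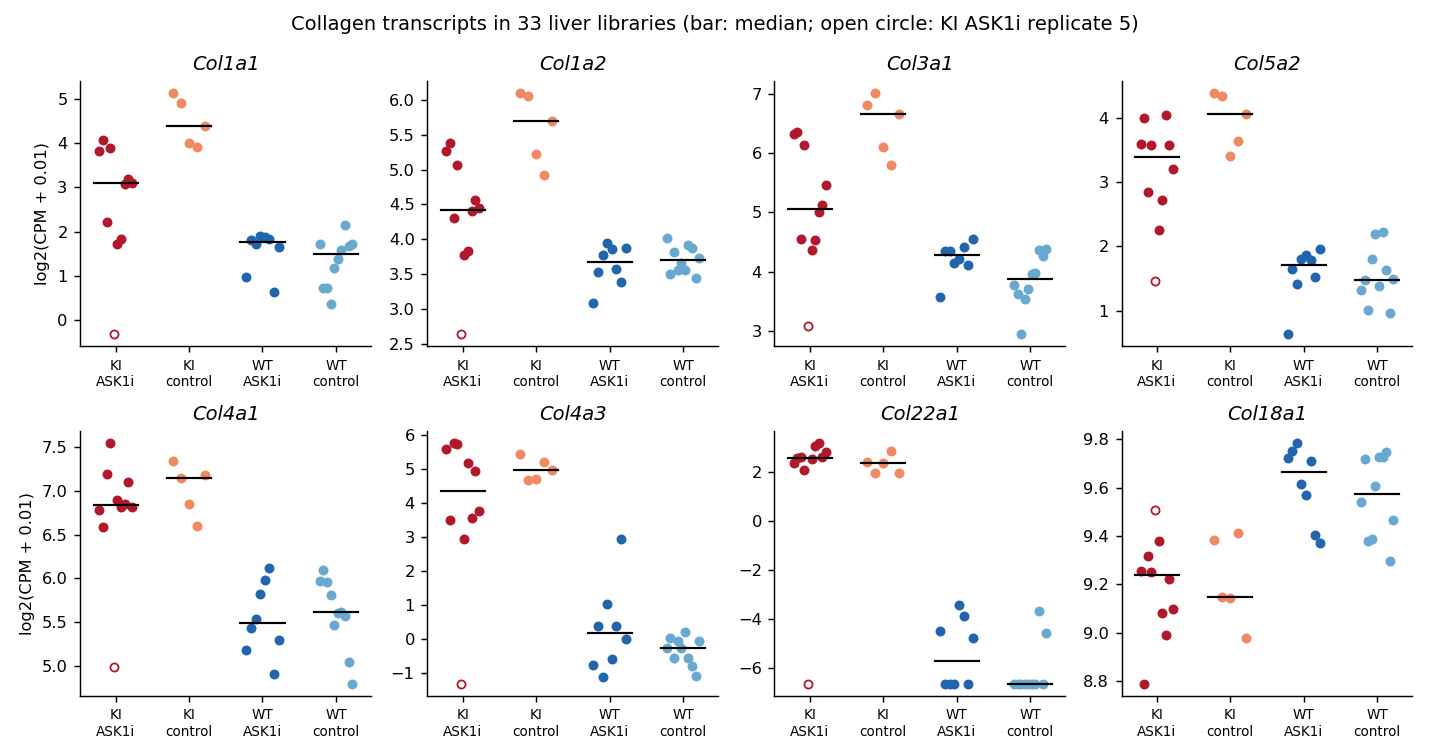
Level of 8 collagen genes in each of 33 liver libraries, as log2(CPM + 0.01) with a scale of its own in each panel, by group; each point is a library, bars mark group medians and the open symbol is KI ASK1i replicate 5. Col4a3 and Col22a1 lie far apart between genotypes on both diets, Col1a1 and Col3a1 spread widely in KI ASK1i livers, and Col18a1 is lower in KI livers.

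The first comparison set mutant against wild-type livers on control chow. Of 34 collagen genes tested, 19 were higher and 3 lower in KI control than in WT control livers (edgeR quasi-likelihood test, Benjamini-Hochberg adjusted p under 0.05 over 14934 genes). Among all genes tested 27.8% were higher and 28.9% lower. The median log2 difference was 0.56 over the collagen genes and -0.03 over all genes. In 13 of the 34 every KI control library lay above every WT control library, which held for 16.3% of all genes, and in 0 of the 34 did all lie below, against 12.8% of all genes. By type, 6 of 9 fibrillar genes rose and 1 fell, 4 of 5 basement membrane genes rose, 3 of 6 fibril-associated genes rose, and 6 of the 14 others rose and 2 fell.

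On the inhibitor diet 15 collagen genes were higher and 5 lower in KI ASK1i than in WT ASK1i livers, against 30.3% and 28.8% of all genes. Without replicate 5 the counts were 17 and 6, against 31.8% and 31.4% of all genes. Of the 34, 14 were higher in KI livers on both diets, and 1, Col18a1, was lower on both. A further 5 were called higher on control chow alone and 1, Col6a6, on the inhibitor diet alone. The share of all genes called on both diets is not given here, so these counts do not set the collagen genes apart. Without replicate 5, 7 genes had every KI ASK1i library above every WT ASK1i library (13% of all genes did): Col4a1, Col4a2, Col4a3, Col4a4, Col5a2, Col11a2 and Col22a1. With it, only Col11a2 did, among 2.36% of all genes. In 0 of the 34 did every KI ASK1i library lie below every WT ASK1i library, with replicate 5 (3.91% of all genes did) or without it (12% did). A call on 1 diet and not on the other does not show that the diets differ.

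**Figure D2:**
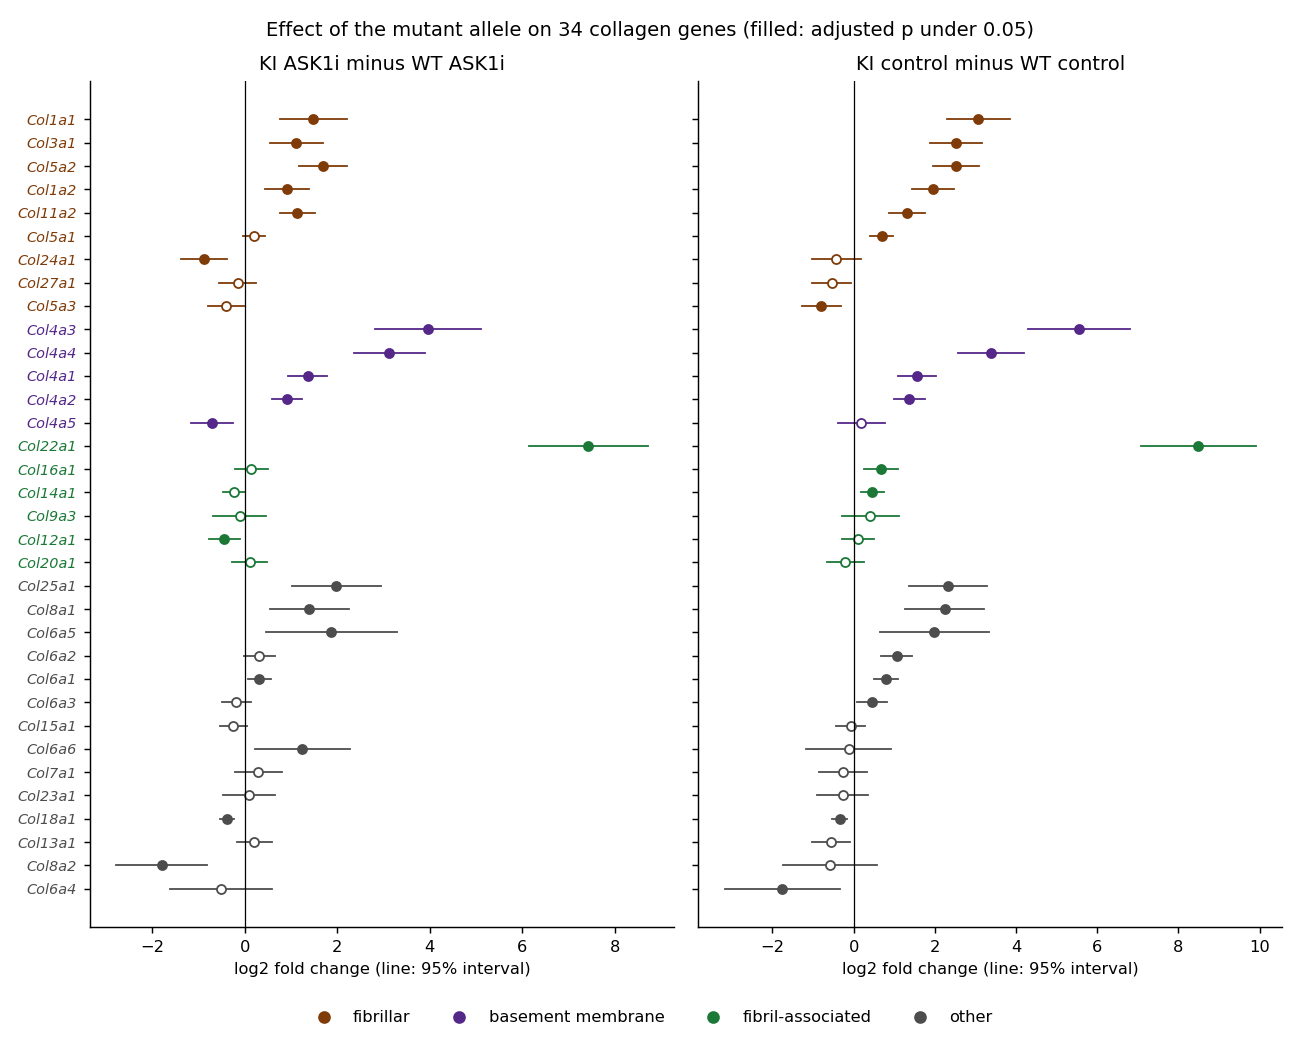
Log2 difference between KI and WT livers for 34 collagen genes, with 95% intervals, on control chow and on the inhibitor diet (horizontal scales differ between panels); filled points have an adjusted p under 0.05 and colours mark the collagen type. Col22a1 and Col4a3 lie farthest to the right in both panels, and type I and III chains lie further right on control chow.

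Among the fibrillar genes, the chains of types I and III are of most interest in a scarring liver, and their start regions are shown where RefSeq gave a promoter window (GRCm38.p6, the mm10 build), up to the base before RefSeq's start. Starts in the count table, which count from 0, were raised by 1, and then met RefSeq's in 27 of the 33 collagen genes with a window. Col1a2 (mm10 chr6:4505697-4541543, plus strand) is shown for chr6:4505368-4505617, with a CCAAT box and 2 GC boxes (GGGCGG) in capitals, and Col3a1 (chr1:45311538-45349706, plus strand) for chr1:45311288-45311537, with a TATAAA in capitals.
Col1a2: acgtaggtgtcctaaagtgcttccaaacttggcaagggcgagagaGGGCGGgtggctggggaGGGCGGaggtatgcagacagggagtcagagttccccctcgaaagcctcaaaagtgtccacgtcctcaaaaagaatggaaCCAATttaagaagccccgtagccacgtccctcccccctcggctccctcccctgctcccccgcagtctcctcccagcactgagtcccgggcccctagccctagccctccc
Col3a1: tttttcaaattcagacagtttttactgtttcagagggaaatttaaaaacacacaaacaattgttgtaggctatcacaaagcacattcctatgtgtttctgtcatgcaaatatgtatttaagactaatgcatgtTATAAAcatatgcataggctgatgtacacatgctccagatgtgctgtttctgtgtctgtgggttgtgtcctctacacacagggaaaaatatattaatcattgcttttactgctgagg
Counted back from the start, the CCAAT of Col1a2 lies at -109 to -105 and its GC boxes at -205 to -200 and -188 to -183, and the TATAAA of Col3a1 lies at -117 to -112. RefSeq places the start of Col1a2 upstream of the start in the count table. Searched on both strands in the 250 bases before each start, CCAAT occurred in 33.8% of 32851 mouse promoter windows, GGGCGG in 32.7%, TATAAA in 12.4% and TGANTCA, the AP-1 site, in 6.75%. These windows belong to 27025 genes, and the shares are per window. Of the 33 collagen genes with a window, counted by gene, 13, 21, 4 and 1 held them. These matches of letters say nothing of which factors bind.

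Col1a1 (chr11:94936270-94951856) encodes the alpha 1 chain, of which type I collagen holds a pair per molecule. It had 0.792 to 16.8 CPM in KI ASK1i livers (median 8.51), 35.1, 30.3, 16.1, 15.2 and 21.0 in KI control livers (replicates 1, 2, 3, 4 and 1P), 1.53 to 3.72 in WT ASK1i livers (median 3.41) and 1.27 to 4.42 in WT control livers (median 2.79). The 5 KI control livers were well above all WT livers, while KI ASK1i livers other than replicate 5 ran from the WT range into the KI control range. The log2 difference was 3.07 (SE 0.40, adjusted p = 2.67e-07 by edgeR) on control chow and 1.48 (SE 0.37, adjusted p = 0.0010) on the inhibitor diet. Without replicate 5, which had the 0.792 CPM, the second was 1.64, and 7 of 9 KI ASK1i livers lay above all WT ASK1i livers.

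Col1a2, the partner chain of type I collagen, had 6.21 to 41.8 CPM in KI ASK1i livers (median 21.5), 68.5, 66.7, 37.5, 30.4 and 51.8 in KI control livers, 8.48 to 15.4 in WT ASK1i livers (median 12.8) and 10.9 to 16.1 in WT control livers (median 13.0). It rose by 1.96 (SE 0.27, adjusted p = 5.75e-07 by edgeR) on control chow and by 0.91 (SE 0.24, adjusted p = 0.00156) on the inhibitor diet, on the log2 scale. Col3a1, the sole chain of type III collagen, had 8.47 to 82.4 CPM in KI ASK1i livers (median 33.5), 112, 129, 68.9, 55.9 and 101 in KI control livers, 11.9 to 23.6 in WT ASK1i livers (median 19.4) and 7.71 to 20.9 in WT control livers (median 14.6). Its log2 differences were 2.52 (SE 0.33, adjusted p = 3.17e-07 by edgeR) and 1.12 (SE 0.30, adjusted p = 0.00186). Without replicate 5 the differences on the inhibitor diet were 1.05 for Col1a2 and 1.25 for Col3a1. For both genes KI control livers did not overlap with WT control livers, and KI ASK1i livers overlapped with WT ASK1i livers also without replicate 5.

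Type V and XI chains regulate how fibres of types I and III form. Col5a2 had 2.74 to 16.4 CPM in KI ASK1i livers (median 10.5), 20.8, 20.3, 10.6, 12.3 and 16.6 in KI control livers, 1.54 to 3.86 in WT ASK1i livers (median 3.27) and 1.94 to 4.67 in WT control livers (median 2.78). It rose by 2.52 (SE 0.29, adjusted p = 4.73e-08 by edgeR) on control chow and by 1.69 (SE 0.26, adjusted p = 2.98e-06) on the inhibitor diet, and by 1.83 without replicate 5, the KI ASK1i library within the WT range. Col11a2 had 1.13 to 2.03 CPM in KI ASK1i livers (median 1.73), 1.57, 1.54, 2.05, 1.39 and 2.35 in KI control livers, 0.464 to 1.10 in WT ASK1i livers (median 0.728) and 0.303 to 1.13 in WT control livers (median 0.742). Here all 10 KI ASK1i libraries lay above all WT ASK1i libraries, but replicate 5 only narrowly, at 1.13 CPM against 1.10. The highest WT control library also had 1.13 CPM, and the other 9 KI ASK1i libraries had 1.25 or more. The log2 differences were 1.32 (SE 0.23, adjusted p = 1.38e-05 by edgeR) on control chow and 1.14 (SE 0.19, adjusted p = 1.04e-05) on the inhibitor diet. The second was 1.2 without replicate 5. Col5a1, the other main type V chain, averaged 9.88 ± 1.99 CPM in KI ASK1i livers, 14.3 ± 3.16 in KI control livers, 8.74 ± 0.709 in WT ASK1i livers and 8.99 ± 1.48 in WT control livers. It rose by 0.69 (SE 0.14, adjusted p = 0.000125 by edgeR) on control chow, and on the inhibitor diet the difference was 0.20 (adjusted p = 0.152, and 0.26 with adjusted p = 0.0433 without replicate 5).

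Col5a3, another chain of some type V molecules, was lower in KI control livers. It averaged 9.89 ± 3.60 CPM in KI ASK1i livers, 12.7 ± 3.53 in KI control livers, 14.6 ± 7.34 in WT ASK1i livers and 18.6 ± 5.87 in WT control livers. It fell by 0.80 (SE 0.24, adjusted p = 0.00605 by edgeR) on control chow, a call that ended with group alone in the model, with the L code or with the numbered titles alone. On the inhibitor diet the log2 difference was -0.40 (adjusted p = 0.0877), and -0.56 (adjusted p = 0.0125) without replicate 5. Of the minor fibrillar chains, Col24a1 fell by 0.89 (SE 0.25, adjusted p = 0.00332 by edgeR) on the inhibitor diet, at 0.304 ± 0.149 CPM in KI ASK1i livers against 0.522 ± 0.250 in WT ASK1i livers, and Col27a1 was called on neither diet. Col2a1 (13 counts in all) and Col11a1 (63 counts in all), known from cartilage, were not tested. Of the 63 counts of Col11a1, 56 were in KI control livers, 20 in replicate 1, 35 in replicate 2 and 1 in replicate 1P, against 2 in KI ASK1i, 2 in WT ASK1i and 3 in WT control livers.

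The type IV genes lie head to head in pairs, and the pairs are of interest because Col4a3 and Col4a4 had the largest rises of the type. By the starts in the count table, Col4a1 (minus strand, start 11312826) and Col4a2 (plus strand, start 11312829) lie 3 bases apart on chromosome 8 of mm10. Col4a4 (minus strand, start 82586849) and Col4a3 (plus strand, start 82586921) lie 72 bases apart on chromosome 1. GENCODE vM21 starts Col4a2 at 11312805, a distance of -21 bases, so the first pair overlaps there, and it gives the last pair the same 72. The 71 bases between the last pair, chr1:82586850-82586920, read on the minus strand towards Col4a4 (RefSeq GRCm38.p6), are shown because both genes start from them. They hold none of the 4 motifs searched, so nothing is in capitals.
Col4a4-Col4a3 gap: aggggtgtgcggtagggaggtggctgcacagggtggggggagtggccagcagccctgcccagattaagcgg

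Col4a1 and Col4a2 encode the chains of the common type IV network. Col4a1 had 31.8 to 188 CPM in KI ASK1i livers (median 114), 163, 142, 115, 96.8 and 145 in KI control livers, 29.9 to 69.6 in WT ASK1i livers (median 44.8) and 27.8 to 68.7 in WT control livers (median 48.9). It rose by 1.56 (SE 0.24, adjusted p = 3.79e-06 by edgeR) on control chow and by 1.36 (SE 0.21, adjusted p = 3.05e-06) on the inhibitor diet, on the log2 scale. Col4a2 had 21.6 to 85.9 CPM in KI ASK1i livers (median 51.3), 72.7, 77.0, 57.1, 68.3 and 66.3 in KI control livers, 18.1 to 34.5 in WT ASK1i livers (median 30.0) and 19.3 to 39.7 in WT control livers (median 27.4), with log2 differences of 1.37 (SE 0.19, adjusted p = 9.18e-07 by edgeR) and 0.91 (SE 0.17, adjusted p = 2.78e-05). In both genes the KI livers lay above every WT liver of the same diet, except for replicate 5, without which the differences on the inhibitor diet were 1.5 for Col4a1 and 1.03 for Col4a2.

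Col4a3 and Col4a4 encode chains best known from the basement membrane of the kidney glomerulus. Col4a3 (chr1:82586921-82722059) had 0.396 to 54.2 CPM in KI ASK1i livers (median 22.1), 43.4, 25.5, 25.7, 36.5 and 31.3 in KI control livers, 0.457 to 7.61 in WT ASK1i livers (median 1.14) and 0.461 to 1.16 in WT control livers (median 0.827). The 9 KI ASK1i livers other than replicate 5 had 7.62 CPM or more, so the lowest of them met the highest WT ASK1i liver. The log2 difference was 5.55 (SE 0.64, adjusted p = 5.44e-08 by edgeR) on control chow, 46.8-fold, and 3.97 (SE 0.59, adjusted p = 1.45e-06) on the inhibitor diet, 15.7-fold. The second value turns on WT ASK1i replicate 1P, which had the 7.61 CPM: the difference was 4.72, or 26.4-fold, without that library and 4.13 without KI ASK1i replicate 5. Col4a4 (chr1:82450723-82586849) had 0.548 to 9.50 CPM in KI ASK1i livers (median 4.40), 7.63, 3.79, 3.92, 5.87 and 5.79 in KI control livers, 0.298 to 0.914 in WT ASK1i livers (median 0.531) and 0.311 to 0.792 in WT control livers (median 0.504). It rose by 3.39 (SE 0.41, adjusted p = 9.93e-08 by edgeR) and by 3.13 (SE 0.39, adjusted p = 9.85e-08), the second being 3.28 without replicate 5.

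Col4a5, the X-linked partner of these chains, was not called on control chow. It averaged 1.61 ± 0.506 CPM in KI ASK1i livers, 1.64 ± 0.651 in KI control livers, 2.78 ± 1.11 in WT ASK1i livers and 2.01 ± 1.07 in WT control livers. The log2 difference was 0.19 (adjusted p = 0.592 by edgeR) on control chow, and on the inhibitor diet the gene fell by 0.72 (SE 0.23, adjusted p = 0.00917). It was also the 1 collagen gene called between sexes, higher in females by 0.80 (SE 0.19, adjusted p = 0.0234 by edgeR), among 0.703% of all genes called higher in females and 0.783% lower. Col4a6, whose start lies 1343 bases from that of Col4a5 in the count table (1309 in GENCODE vM21), had 49, 45, 49 and 73 counts in KI ASK1i, KI control, WT ASK1i and WT control livers and was not tested.

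Among the fibril-associated genes Col22a1 had the largest rise of all 34. Its chain, of type XXII, is known from the junction of muscle and tendon. Col22a1 (chr15:71798476-72034227) had 0 to 9.12 CPM in KI ASK1i livers (median 6.00), 5.25, 3.88, 5.10, 7.26 and 3.92 in KI control livers, 0 to 0.0824 in WT ASK1i livers (median 0.0134) and 0 to 0.0674 in WT control livers (median 0). It was near absent from WT livers: 8 WT ASK1i libraries held 7 counts in all, and 10 WT control libraries held 3, against 2072 counts in KI ASK1i and 968 in KI control livers. Replicate 5 was the KI ASK1i library with 0 counts, which allows up to 0.0914 CPM (3 counts), and the other 9 had 4.19 CPM or more. The ratio of summed counts at equal depth was 506 (95% exact interval 173 to 2460, counting error only) between KI control and WT control livers and 220 (106 to 547) between KI ASK1i and WT ASK1i livers. The fitted adjusted p was 1.70e-09 and 6.64e-10 by edgeR. Fitted values of so few WT counts depend on single libraries: on control chow the fitted log2 difference was 8.49 with all libraries and 9.40 without WT control replicate 8.

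Col14a1 (chr15:55307750-55520803), whose type XIV chain binds type I fibres, had 26.4 to 70.0 CPM in KI ASK1i livers (median 47.0), 82.1, 89.2, 58.0, 50.4 and 90.4 in KI control livers, 48.8 to 65.9 in WT ASK1i livers (median 52.8) and 51.4 to 64.3 in WT control livers (median 55.6). Replicates 1, 2 and 1P of KI control lay above all WT control livers and replicate 4 below them. The gene rose by 0.45 (SE 0.14, adjusted p = 0.00888 by edgeR) on control chow, and on the inhibitor diet the difference was -0.24 (adjusted p = 0.0856). Col16a1 averaged 4.44 ± 1.39 CPM in KI ASK1i livers, 5.61 ± 0.980 in KI control livers, 3.99 ± 1.28 in WT ASK1i livers and 3.62 ± 0.679 in WT control livers, and rose by 0.67 (SE 0.22, adjusted p = 0.0100 by edgeR) on control chow. Col12a1, a relative of Col14a1 that also coats fibres, fell by 0.44 (adjusted p = 0.0274 by edgeR) on the inhibitor diet, at 1.41 ± 0.484 CPM in KI ASK1i livers against 1.98 ± 0.549 in WT ASK1i livers. Col9a3 and Col20a1 were called on neither diet, and Col9a1 (25 counts in all) and Col9a2 (28) were not tested.

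Of the other collagens, Col18a1 (chr10:77052179-77166530) fell on both diets. It had 442 to 729 CPM in KI ASK1i livers (median 604), 669, 567, 566, 681 and 505 in KI control livers, 663 to 883 in WT ASK1i livers (median 812) and 628 to 860 in WT control livers (median 763). The log2 difference was -0.35 (SE 0.10, adjusted p = 0.00294 by edgeR) on control chow, where the groups overlapped, and -0.38 (SE 0.08, adjusted p = 0.000122) on the inhibitor diet, where 8 of 10 KI livers lay below all WT livers. The 729 CPM was that of replicate 5, and without it the second value was -0.42. Hepatocytes are known makers of type XVIII collagen. The 8 hepatocyte markers summed lower in KI livers other than replicate 5, as given below. Whether this bears on Col18a1 was not tested.

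Type VI is built of Col6a1, Col6a2 and Col6a3 or an alternative chain in place of the last. Col6a1 had 7.74 to 18.9 CPM in KI ASK1i livers (median 12.5), 20.9, 17.1, 16.6, 13.8 and 23.5 in KI control livers, 6.97 to 13.8 in WT ASK1i livers (median 10.8) and 9.09 to 12.1 in WT control livers (median 10.7). It rose by 0.79 (SE 0.15, adjusted p = 5.11e-05 by edgeR) and by 0.31 (SE 0.13, adjusted p = 0.0368), the second call ending without any 1 of 5 libraries (WT ASK1i 2 and 1P, KI ASK1i 1, 2 and 4). Col6a2 rose by 1.06 (SE 0.19, adjusted p = 3.80e-05 by edgeR) on control chow, at 10.2 ± 1.86 CPM in KI control livers against 4.67 ± 1.01 in WT control livers. On the inhibitor diet its difference was 0.32 (adjusted p = 0.108), at 6.47 ± 2.09 CPM in KI ASK1i livers against 5.12 ± 1.08 in WT ASK1i livers, and it passed the threshold without KI ASK1i replicate 5 (0.40, adjusted p = 0.0228) or replicate 6 (0.39, adjusted p = 0.0499). Col6a3 rose by 0.45 (adjusted p = 0.0377 by edgeR), at 11.8 ± 2.96 CPM in KI control livers against 8.28 ± 2.12 in WT control livers, a call that ended without KI control replicate 1 or 2 or WT control replicate 3 or 4. The alternative chains were rare. Col6a5 rose by 1.99 (adjusted p = 0.0146 by edgeR) and by 1.87 (adjusted p = 0.0271), at 0.178, 0.479, 0.0483 and 0.101 CPM on average in KI ASK1i, KI control, WT ASK1i and WT control livers. Col6a4 fell by 1.75 (adjusted p = 0.0409 by edgeR) on control chow, and Col6a6 rose by 1.24 (adjusted p = 0.0418) on the inhibitor diet. The Col6a4 call ended with 7 left-out libraries, the Col6a6 call with 10, and the Col6a5 call on the inhibitor diet with 5. The Col6a5 difference was 2.65 on control chow without WT control replicate 2P, and 2.49 on the inhibitor diet without WT ASK1i replicate 5.

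Col8a1, a short chain of vessel walls, and Col25a1, a membrane collagen known from neurons, rose on both diets from low levels. Col8a1 averaged 0.711 ± 0.428 CPM in KI ASK1i livers, 0.900 ± 0.501 in KI control livers, 0.257 ± 0.203 in WT ASK1i livers and 0.187 ± 0.109 in WT control livers (log2 differences of 2.24 and 1.40, adjusted p = 0.000325 and 0.00679 by edgeR). Col25a1 averaged 0.366 ± 0.227, 0.877 ± 0.406, 0.0854 ± 0.0418 and 0.147 ± 0.133 CPM in the same groups (2.32 and 1.98, adjusted p = 0.000214 and 0.000965 by edgeR). Col8a2 fell by 1.8 (SE 0.50, adjusted p = 0.00284 by edgeR) on the inhibitor diet, at 0.0566 ± 0.0440 CPM in KI ASK1i livers against 0.214 ± 0.148 in WT ASK1i livers. Col7a1, Col13a1, Col15a1 and Col23a1 were called on neither diet. Col13a1 had a difference of -0.55 and an adjusted p of 0.0513 on control chow by edgeR. It was called lower there by DESeq2 (adjusted p = 0.0405), by limma voom (0.0270), with group alone (0.0118), with only the 2 groups compared (0.0156) and in 8 of the 33 fits that left out a library, among them that without KI ASK1i replicate 5 (0.0494). Col17a1 (124 counts in all) and Col28a1 (14) were not tested.

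The L codes are spread unevenly over the groups. No L code holds both KI control and WT control libraries, so for that comparison the 2 cannot be told apart by subsets. With the L code as a term in the model, 15 collagen genes were higher and 1 lower on control chow, and 13 and 3 on the inhibitor diet. Of all genes 18.3% were then higher and 15.8% lower on control chow, and 27.9% and 28% on the inhibitor diet. Code L1 holds 4 KI ASK1i and 2 WT ASK1i libraries, and L7 holds 1 and 2. The log2 ratio of mean CPM was 1.68 in L1 and 1.97 in L7 for Col1a1, 0.71 and 2.01 for Col3a1, 1.79 and 0.73 for Col4a1, 2.42 and 5.59 for Col4a3, 8.35 and 6.01 for Col22a1, and -0.29 and -0.39 for Col18a1. Of 34 collagen genes 26 had the same direction in both codes, among them all 20 called on the inhibitor diet, and 8 did not, Col5a3, Col6a3, Col6a4, Col9a3, Col13a1, Col14a1, Col16a1 and Col27a1. The 20 calls rest in part on these same libraries, so their shared direction is not a separate check of them. The share of all genes with the same direction is not given here.

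The next comparisons asked whether the inhibitor diet changed collagen transcripts within a genotype. In KI livers, 1 of 34 collagen genes was called, Col14a1, which fell. Of all genes 0.0536% were called lower and 0% higher. A further 12 had an unadjusted p under 0.05, so that 13 did, 1 higher and 12 lower, against 10.3% of all genes. The log2 difference was below 0 for 28 of 34, with a median of -0.40 over the collagen genes and 0.03 over all genes. By type the median was -0.52 for fibrillar, -0.24 for basement membrane, -0.23 for fibril-associated and -0.43 for other genes. The 34 share libraries, so they are not independent of each other. DESeq2 called 2 genes, Col14a1 and Col1a2 (adjusted p = 0.0031 and 0.031), and limma voom called 0.

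Col14a1 fell by 0.70 (SE 0.14, 95% interval -0.98 to -0.43, adjusted p = 0.0405 by edgeR), to 46.9 ± 11.1 CPM in KI ASK1i livers, against 74.0 ± 18.6 in KI control livers. All 10 KI ASK1i livers lay below the KI control mean and 7 below every KI control liver, and without replicate 5 the difference was -0.68 (adjusted p = 0.0455), where 0.067% of all genes were called lower and 0.0134% higher. Its adjusted p ran from 0.00197 to 0.479 when each library was left out in turn and missed 0.05 in 27 of 33 such fits. It also missed 0.05 with other size factors, voom, group alone, the L code, the replicate number as a block, the numbered titles alone, males alone or the 2 groups alone. Within L codes the log2 ratio was -0.96 in L1, with 1 KI control library, and 0.00 in L7, with 1 KI ASK1i library.

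The type I and III chains had the largest differences among well-detected genes, none past the threshold. Col1a1 averaged 8.44 ± 5.46 CPM in KI ASK1i livers (9.29 ± 5.04 without replicate 5) and 23.6 ± 8.82 in KI control livers, a log2 difference of -1.42 (95% interval -2.18 to -0.66, unadjusted p = 0.000968, adjusted p = 0.330 by edgeR). All 10 KI ASK1i livers lay below the KI control mean, and 9 below every KI control liver. Col1a2 averaged 23.4 ± 11.4 CPM in KI ASK1i livers and 51.0 ± 17.0 in KI control livers (-1.10, adjusted p = 0.160 by edgeR, and -0.99 with adjusted p = 0.0666 without replicate 5). Col3a1 averaged 42.0 ± 26.5 CPM in KI ASK1i livers and 93.6 ± 30.5 in KI control livers (-1.11, adjusted p = 0.363 by edgeR). For Col1a1 the log2 ratio was -1.50 in L1 and -0.77 in L7, for Col1a2 -1.36 and -0.40, and for Col3a1 -1.60 and -0.20.

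For the basement membrane chains, Col22a1 and Col18a1 the intervals between diets included 0. In KI ASK1i against KI control livers the log2 difference was 0.06 for Col22a1 (95% interval -0.87 to 0.98), -0.41 for Col4a3 (-1.50 to 0.67), -0.24 for Col4a4 (-0.99 to 0.51), -0.18 for Col4a1 (-0.65 to 0.28) and 0.03 for Col18a1 (-0.16 to 0.21). The first 3 intervals are wide, so no likeness is shown. Other chains with large genotype differences were lower on average with the inhibitor, without passing the threshold, among them Col5a2 with a difference of -0.77 and Col25a1 with -1.21 (adjusted p = 0.429 by edgeR for both). Col13a1, a membrane collagen, was the 1 gene above 0 with an unadjusted p under 0.05, at 6.67 ± 1.88 CPM in KI ASK1i livers and 4.23 ± 1.90 in KI control livers (0.65, adjusted p = 0.429 by edgeR).

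**Figure D3:**
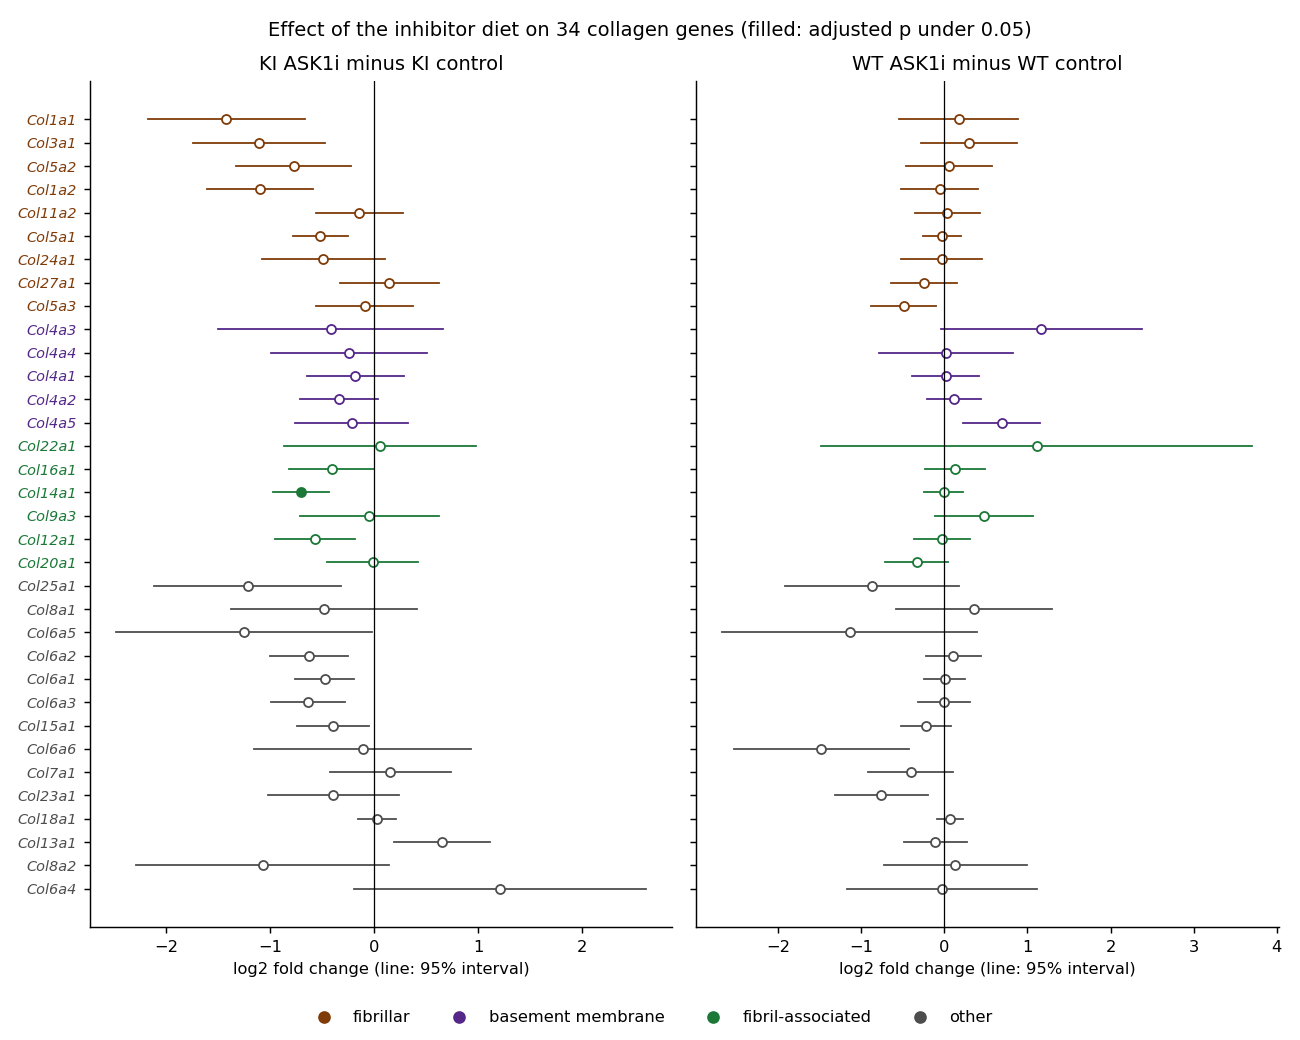
Log2 difference between inhibitor-fed and control-fed livers for 34 collagen genes, with 95% intervals, in KI and in WT mice (horizontal scales differ between panels); filled points have an adjusted p under 0.05. In KI livers Col14a1 alone is filled and 28 of 34 points lie left of 0, while in WT livers none is filled.

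In WT livers 0 of 34 collagen genes were called between diets by edgeR, and 4 had an unadjusted p under 0.05, 1 higher and 3 lower, against 13.9% of all genes. Of all genes 1.13% were called higher and 0.268% lower. The median log2 difference was 0.00 over the collagen genes and also -0.00 over all genes. DESeq2 and limma voom called 0 of the 34 as well. By smallest p the 3 leading genes were Col4a5 (log2 difference 0.69, adjusted p = 0.152 by edgeR), Col6a6 (-1.48, adjusted p = 0.184) and Col23a1 (-0.75, adjusted p = 0.203). Col1a1 averaged 3.04 ± 0.834 CPM in WT ASK1i livers and 2.65 ± 0.963 in WT control livers.

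The test of whether the diet difference depends on genotype (interaction) called 0 of 34 collagen genes and 0% of all genes by edgeR. At an unadjusted p under 0.05 it found 12, 1 above 0 and 11 below, against 8.38% of all genes, and DESeq2 and voom called 0 of the 34. The 3 smallest p belonged to Col14a1 (-0.70, SE 0.19, adjusted p = 0.361 by edgeR), Col3a1 (-1.41, SE 0.44, adjusted p = 0.453) and Col1a2 (-1.04, adjusted p = 0.478).

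Chains of the same collagen type, or of different types, were next compared with each other inside each library, as the log2 ratio of their counts. These ratios are not per length, so a ratio of 0 does not mean equal numbers of transcripts. There were 24 exact two-sided permutation tests, 6 ratios in 4 comparisons, with p adjusted over them. Col1a1 to Col1a2 averaged -1.70 ± 0.56 in KI ASK1i livers, -1.12 ± 0.14 in KI control livers, -2.08 ± 0.33 in WT ASK1i livers and -2.38 ± 0.50 in WT control livers. KI control livers were above WT control livers by 1.26 (adjusted exact permutation p = 0.00533), and KI ASK1i livers were below KI control livers by a difference of -0.58 (adjusted exact permutation p = 0.0160). Within WT the diet difference was 0.31 (adjusted exact permutation p = 0.243).

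Col4a1 to Col1a1, a basement membrane chain set against a fibrillar one, averaged 4.09 ± 0.97 in KI ASK1i livers, 2.55 ± 0.30 in KI control livers, 3.98 ± 0.27 in WT ASK1i livers and 4.27 ± 0.85 in WT control livers. The difference was -1.72 between KI control and WT control livers (adjusted exact permutation p = 0.00533) and 1.55 between KI ASK1i and KI control livers (adjusted exact permutation p = 0.0160). Col5a2 to Col1a1 averaged 0.46 ± 0.64 in KI ASK1i livers and -0.52 ± 0.19 in KI control livers, a difference of 0.97 (adjusted exact permutation p = 0.00799). Col6a1 to Col1a1 averaged 1.04 ± 1.03 in KI ASK1i livers, -0.30 ± 0.45 in KI control livers and 2.10 ± 0.55 in WT control livers. Its differences were 1.34 between KI ASK1i and KI control livers (adjusted exact permutation p = 0.0183) and -2.41 between KI control and WT control livers (adjusted exact permutation p = 0.00533). Col1a1 thus carried more weight relative to Col1a2, Col4a1, Col5a2 and Col6a1 in KI control livers than in KI ASK1i livers. All 4 ratios share Col1a1, so they are not separate results. Without replicate 5 the 4 differences between KI ASK1i and KI control livers were -0.44, 1.41, 0.83 and 1.09, all still past the threshold. With the numbered titles alone or males alone, all 4 missed it. For Col1a1 to Col3a1 the difference between KI ASK1i and KI control livers was -0.43 (adjusted exact permutation p = 0.0668).

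The sexes were spread unevenly, and the ratios were not tested between them. In WT control livers Col1a1 to Col1a2 averaged -2.62 in 7 females and -1.84 in 3 males, and Col4a1 to Col1a1 averaged 4.69 in females and 3.29 in males. In WT ASK1i livers Col1a1 to Col1a2 averaged -2.25 in 4 females and -1.90 in 4 males, and Col4a1 to Col1a1 averaged 3.98 in each sex. In KI ASK1i livers the first averaged -1.76 in 5 females and -1.65 in 5 males, and the second 4.32 and 3.87. KI control held 1 female, with -0.963 and 2.21, and 4 males, with means of -1.16 and 2.63. Females were thus below males on average in the first ratio in 3 of the 4 groups. In KI ASK1i livers that order turned on replicate 5, a female library with the lowest ratio. Females there ran from -2.95 to -1.16 and males from -2.09 to -1.31. In males alone the differences between KI control and WT control livers were 0.68 for Col1a1 to Col1a2 and -0.66 for Col4a1 to Col1a1. Between KI ASK1i and KI control livers they were -0.48 and 1.23, and none of the 4 passed the threshold in the smaller sample. With 4 KI control and 3 WT control males, the permutation test could hardly pass after adjustment, so the misses there decide nothing.

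**Figure D4:**
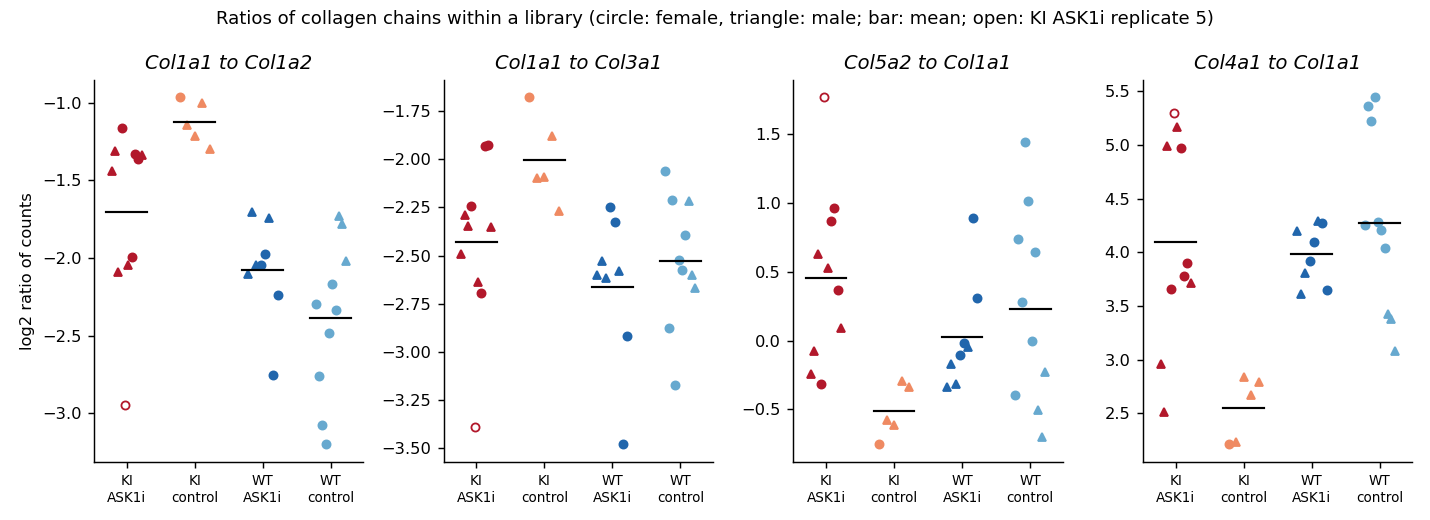
Log2 ratio of counts of 4 pairs of collagen chains in each of 33 libraries, by group; circles are libraries of females and triangles of males, bars mark group means and the open symbol is KI ASK1i replicate 5. KI control livers have the highest mean of the 4 groups for Col1a1 to Col1a2 (-1.12) and the lowest for Col4a1 to Col1a1 (2.55).

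Within KI ASK1i livers Col1a1 ran from 0.792 to 16.8 CPM, and the next question was which genes ran with it. Over the 9 libraries other than replicate 5, which lies in a separate cluster, Col1a2 had Pearson's r = 0.960 and Spearman's rho = 0.983 with Col1a1 (adjusted exact permutation p = 0.00455 and 0.00149). Col3a1 had r = 0.954 and rho = 0.967 (adjusted exact permutation p = 0.0101 and 0.00248). Both held without the 2 libraries farthest from the Col1a1 median (r = 0.911 and 0.954). Col5a2 had r = 0.864 (adjusted exact permutation p = 0.0257) and rho = 0.733 (adjusted exact permutation p = 0.104), and r = 0.679 without those 2 libraries, so it rests on them. Col6a1 (r = 0.774, rho = 0.767), Col14a1 (0.699, 0.633), the smooth muscle actin gene Acta2 (0.690, 0.717), the inhibitor Timp1 (0.702, 0.750) and the neutrophil gene S100a8 (0.636, 0.617) did not pass the adjusted threshold. Col4a1 had r = 0.017 and rho = -0.25, and the stellate cell gene Lrat 0.040 and 0.017.

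With replicate 5 in, r was 0.717 for Col4a1 and 0.907 for Col6a1, so that 1 library decides those values. The family held 30 relations, 10 partners in 3 groups. In WT ASK1i livers Col4a1 had r = 0.824 over 8 libraries (adjusted exact permutation p = 0.0257), and in WT control livers Col3a1 had r = 0.802 over 10 (adjusted permutation p = 0.0272). The 9 KI ASK1i libraries hold 5 of the numbered titles and 4 of the other set, 4 females and 5 males, too few for a value within either.

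**Figure D5:**
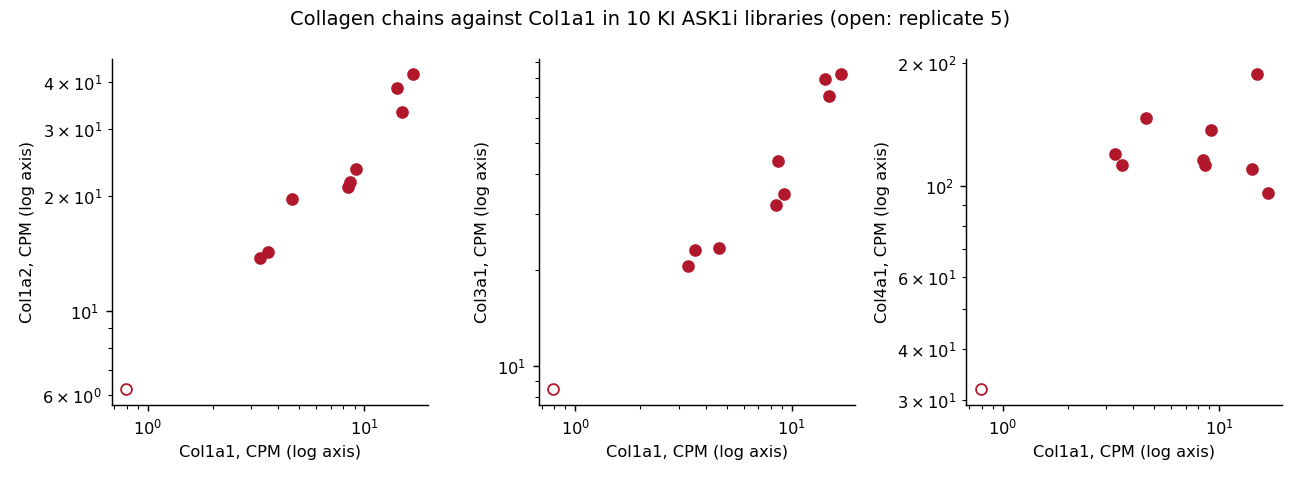
CPM of Col1a2, Col3a1 and Col4a1 against that of Col1a1 in 10 KI ASK1i libraries, all on log axes; the open symbol is replicate 5. Col1a2 and Col3a1 lie along a line with Col1a1 (r = 0.960 and 0.954 without replicate 5), while Col4a1 shows no slope among the 9 filled points (r = 0.017).

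Genes that act on collagen were counted in the same fits. Of 27 tested genes for assembly and cross-linking, 15 were higher and 3 lower in KI control than in WT control livers, and 14 and 2 in KI ASK1i than in WT ASK1i livers, where the shares over all genes were those given above (27.8% and 28.9%, and 30.3% and 28.8%). Lox, which cross-links fibres, averaged 0.995 ± 0.635 CPM in KI ASK1i livers, 2.25 ± 0.707 in KI control livers, 0.302 ± 0.214 in WT ASK1i livers and 0.262 ± 0.0962 in WT control livers (log2 difference 3.21 on control chow, adjusted p = 1.55e-07 by edgeR). Tgm2, a transglutaminase, averaged 492 ± 163 CPM in KI ASK1i livers, 511 ± 64.3 in KI control livers, 140 ± 20.7 in WT ASK1i livers and 163 ± 39.2 in WT control livers (log2 differences of 1.73 on control chow and 1.82 on the inhibitor diet). Between diets in KI livers, 1 of the 27 fell: Pcolce, which enhances the trimming of procollagen, at 7.55 ± 1.53 CPM in KI ASK1i livers against 12.9 ± 2.17 in KI control livers (log2 difference -0.77, SE 0.14, adjusted p = 0.0338 by edgeR). That call ended with the L code, the replicate number as a block, the numbered titles alone, males alone or the 2 groups alone. It also ended in 9 of 33 fits that left out a library. Of 9 collagen receptor genes 7 were higher in KI control and 5 in KI ASK1i than in WT livers of the same diet, 0 lower, among them Lair1 (2.53 and 2.03) and Ddr1 (1.81 and 1.93), with log2 differences on control chow first. Of 11 genes of collagen breakdown and its inhibitors 8 were higher and 1 lower on control chow, and 7 and 1 on the inhibitor diet, led by Mmp8 (7.11 and 8.55), Mmp9 (5.35 and 5.29) and Timp1 (5.07 and 5.63).

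Markers of the cells that make or accompany collagen were counted too, and the counts stand against the same shares of all genes. Of 16 stellate cell and myofibroblast genes 9 were higher and 1 lower in KI control livers, and 4 and 4 in KI ASK1i livers, against WT livers of the same diet, the last 2 counts below the shares of all genes. Their summed level was 462 to 593 CPM in 9 KI ASK1i livers (463 in replicate 5), 488 to 734 in KI control livers, 403 to 570 in WT ASK1i livers and 396 to 618 in WT control livers, so the groups overlapped. Lum, a fibre-binding proteoglycan of this list, fell by 0.97 (SE 0.18, adjusted p = 0.0306 by edgeR) between diets in KI livers, a call that ended under the same settings as that of Pcolce and in 7 of 33 fits that left out a library. Of 9 portal fibroblast and mesothelium genes 4 and 2 were higher on control chow and the inhibitor diet and 0 lower, with sums of 17.2 to 42.3 CPM in 9 KI ASK1i livers, 21.0 to 32.9 in KI control livers, 10.3 to 19.3 in WT ASK1i livers and 9.28 to 16.1 in WT control livers. Of 10 endothelial genes 6 were higher and 1 lower on control chow, and 5 and 1 on the inhibitor diet. All 10 neutrophil and all 9 macrophage genes tested were higher on both diets, and the neutrophil sum was 726 to 4855 CPM in 9 KI ASK1i livers, 751 to 3671 in KI control livers, 5.37 to 13.0 in WT ASK1i livers and 6.45 to 24.8 in WT control livers, with 12.0 in replicate 5. Of 8 hepatocyte genes 7 fell on control chow and 5 on the inhibitor diet, with sums of 36850 to 69440 CPM in 9 KI ASK1i livers, 37520 to 58060 in KI control livers, 118800 to 154000 in WT ASK1i livers and 121000 to 144900 in WT control livers. Of 8 bile duct genes 1 rose and 1 fell on control chow, and 3 rose and 1 fell on the inhibitor diet, and the 1 cartilage and bone gene tested, Sox5, fell on both. No gene of these lists was at 0 in every library, and their part in the collagen differences was not tested.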

How the data were processed

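Per the labels' protocols, RNA of fresh frozen liver was extracted with the Qiagen miRNeasy kit and polyadenylated RNA was sequenced from TruSeq Stranded mRNA libraries. Per the submitters' processing notes, the tools were CASAVA 1.8.2, STAR 2.4 and RSEM 1.2.14 and the build was mm10; the sources used here do not give settings or annotation. The authors deposited RSEM expected counts for each gene without normalisation, and 91.4% to 93.7% of a library's values were whole. RSEM divides reads shared by genes, so parts shared by neighbouring or similar chains can be split.

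Expected counts were rounded and tested with edgeR 4.0.16 in R 4.3.3 (TMM normalisation, genes kept by filterByExpr on groups, robust quasi-likelihood fit and F test, prior count 0.125). The model had group, sex and title set (numbered titles, or numbers with a P) over all 33 libraries. All p-values are two-sided and were adjusted by Benjamini-Hochberg across 14934 genes, with a threshold of 0.05. CPM uses TMM-scaled depth, and levels per length use the mean length of the GENCODE vM21 transcripts that match a gene's RefSeq entries. Col12a1 had no such length and is left out of the levels and sums per length. Ratios added 0.5 counts to each chain and were tested by exact permutation; correlations used log2 CPM with exact permutations under 10 libraries and 100000 otherwise. Collagen promoter windows came from RefSeq. No 2 libraries of a group looked like 1 library sequenced again: the lowest chi-square, per gene, of 128 pairs was 26.3. This does not exclude separate libraries of the same liver. Alternatives were DESeq2 1.42.0, limma 3.58.1 voom, other size factors, filters, covariates and subsets, and each library left out. The procedure was tested on simulated data.

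The collagen genes, the other lists and the tests were chosen with earlier results of these data known. Per-library values are given for the 3 most abundant genes of each type, the gene of each type with the smallest p per genotype comparison, Col1a1, Col1a2, Col3a1, Col4a1, Col4a2, Col5a2, Col6a1, and those called between diets; up to 4 genes per other list are named. Col10a1, Col19a1, Col21a1 and Col26a1 were not analysed here.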

Additional observations from a re-analysis of the deposited data

Results flagged for a closer look

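In 19 collagen genes and 76 groups of libraries, 4 groups had a library far from the others by Dixon's test, which chance gives in about 1 group in 20. Col22a1 in WT control livers was highest in replicate 8 (0.0675 CPM, with 0.0318 next), which is a matter of a few counts. Col4a2 in WT ASK1i livers was lowest in replicate 1P (18.1 CPM, with 27.9 next), and Col4a3 in WT ASK1i livers was highest in the same library (7.61 CPM, with 2.04 next). Col6a6 in KI ASK1i livers was highest in replicate 2 (0.51 CPM, with 0.285 next).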

How the results depend on the processing

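The total of collagen genes called between genotypes stayed within 1.5 times under every alternative run. By direction, 15 to 20 were higher and 0 to 5 lower on control chow, with 0 lower for the numbered titles alone, and 11 to 17 were higher and 1 to 7 lower on the inhibitor diet, with 1 lower in males alone. The RLE size factors gave the same 19 and 3 on control chow and 15 and 5 on the inhibitor diet. Of all genes, 34.2% were called on control chow with the L code, against 56.7% without it. Between diets in KI livers the collagen count was 0 with RLE size factors, limma voom, group alone, the L code, the numbered titles alone, males alone or only the 2 groups compared, 2 with DESeq2, and 0 to 2 with each library left out. The share of all genes called there was 0.0268% with RLE, 0.248% with DESeq2, 0.0201% with group alone, 0% with the L code, numbered titles, males or only the 2 groups, and 0% to 0.094% with each library left out. Between diets in WT livers it was 2.44% with DESeq2, 0.154% with the L code, 0.128% with numbered titles, 0% in males, 5.11% with only the 2 groups and 0.677% to 2.51% with each library left out. For the interaction it was 0.107% with DESeq2, 0.0134% with voom and 0% to 0.0201% with each library left out.

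Replicate numbers in the titles are shared between groups, but only 14 of 37 same-numbered pairs deviated together with a correlation over 0.1. Only 4 libraries correlated best with their own number. The expression values thus gave no clear sign that the numbers pair the samples, which does not exclude a pairing. With the replicate block, 16 collagen genes were higher and 3 lower on control chow (25.4% and 24.7% of all genes), 13 and 6 on the inhibitor diet (27.7% and 27.2%), and 0 were called in the other comparisons; of all genes 0.891% were called between diets in WT and 0% in KI livers.

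Genes called on control chow whose call ended in some fits were Col14a1, Col6a3 and Col6a5 (L code, replicate block and males alone among them), Col16a1 and Col18a1 (L code, numbered titles), Col5a3 and Col6a4. On the inhibitor diet they were Col4a5, Col6a1, Col6a5, Col6a6, Col12a1 and Col24a1. Calls made in some fits only were those of Col13a1, Col24a1 and Col27a1 on control chow and Col5a1, Col5a3, Col6a2 and Col14a1 on the inhibitor diet. Some uncalled genes changed sign. On control chow Col15a1 was 0.0027 with group alone, 0.57 with the L code, 0.063 in males, 0.016 with only the 2 groups and -0.12 to 0.0082 with each library left out; Col20a1 was 0.033 and Col23a1 0.064 with the L code; Col4a5 was -0.29 with group alone, -0.029 with numbered titles and -0.040 to 0.32 with each library left out; Col6a6 was 0.47 with group alone and -0.75 to 0.11 with each library left out. On the inhibitor diet Col9a3 was 0.15 with numbered titles, 0.47 in males and -0.22 to 0.025 with each library left out, Col20a1 -0.0065 to 0.19 and Col23a1 -0.031 to 0.22.

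Differences in chain ratios that missed the threshold or changed sign in subsets were as follows. With numbered titles alone the log2 differences between KI ASK1i and KI control livers were -0.75 for Col1a1 to Col1a2, 0.94 for Col5a2 to Col1a1, 1.61 for Col4a1 to Col1a1 and 1.56 for Col6a1 to Col1a1. Between KI control and WT control livers they were 0.57 for Col1a1 to Col3a1 and -0.00699 for Col4a1 to Col4a2, between KI ASK1i and WT ASK1i livers -0.084 and 0.34 for these, and between WT diets 0.020 for Col1a1 to Col3a1. In males, KI control minus WT control was 0.68 for Col1a1 to Col1a2, 0.41 for Col1a1 to Col3a1, 0.023 for Col5a2 to Col1a1, -0.66 for Col4a1 to Col1a1 and -1.75 for Col6a1 to Col1a1. KI ASK1i minus KI control in males was -0.48 for Col1a1 to Col1a2, 0.64 for Col5a2 to Col1a1, 1.23 for Col4a1 to Col1a1 and 1.01 for Col6a1 to Col1a1. WT ASK1i minus WT control in males was -0.056 for Col1a1 to Col1a2, 0.26 for Col5a2 to Col1a1, 0.020 for Col4a1 to Col4a2, 0.68 for Col4a1 to Col1a1 and 0.14 for Col6a1 to Col1a1, and KI ASK1i minus WT ASK1i in males was 0.52 for Col4a1 to Col4a2 and -0.11 for Col4a1 to Col1a1. With each library left out, KI ASK1i minus WT ASK1i ran over 0.35 to 0.46 for Col4a1 to Col4a2, 0.28 to 0.51 for Col1a1 to Col1a2, -0.019 to 0.29 for Col4a1 to Col1a1 and -1.07 to -0.68 for Col6a1 to Col1a1; KI control minus WT control over 0.45 to 0.59 for Col1a1 to Col3a1 and -0.85 to -0.61 for Col5a2 to Col1a1; and KI ASK1i minus KI control over -0.49 to -0.32 for Col1a1 to Col3a1.

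Without the 2 libraries farthest from the Col1a1 median, r with Col1a1 was 0.118 for Col5a2 in WT control livers, -0.0383 for Col1a2, -0.871 for Col3a1, 0.738 for Col4a1, 0.105 for Col14a1 and -0.00982 for Acta2 in WT ASK1i livers, and 0.679 for Col5a2, -0.206 for Col4a1 and 0.952 for Acta2 in KI ASK1i livers. With replicate 5, r in KI ASK1i livers was 0.907 for Col6a1, 0.848 for Acta2, 0.888 for Timp1 and 0.866 for S100a8. The causes of these changes were not tested, and subsets hold fewer libraries. KI control has 5 libraries, 1 of them female, and Col6a4, Col6a5, Col6a6, Col8a2, Col24a1 and Col25a1 rest on few counts.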
